A study of Mus musculus with 6 samples.

Results

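The clustered histone genes are the rows of the count files whose symbol starts with Hist1h, Hist2h, Hist3h or Hist4h, and 69 of the 24453 rows met this rule. They comprise 6 rows for the linker histone H1, 19 for H2A, 19 for H2B, 12 for H3 and 13 for H4. The 3 libraries labelled 2KO came from mice of genotype Ring1a-/- Ring1b-/-, and the 3 labelled control from mice whose genotype is given only as Control. RNA sequencing was done on bulk samples of skin cells sorted by flow cytometry from newborn mice at postnatal day 0, which the labels call hair follicle cells, although the attached protocol describes a gate for interfollicular epidermis. The sources used here give no Cre driver, no litter and no number of animals per library. Nothing in the labels says that the libraries came from separate animals, so the p-values measure the spread between these libraries, which may be technical.

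Replication-dependent histone genes supply the histones that package newly copied DNA, and they are transcribed at the start of and during S phase of the cell cycle. Their messenger RNAs are unusual in that most end in a conserved stem-loop rather than a poly(A) tail. Stem-loop binding protein (SLBP) binds this structure, and the messages are degraded when DNA synthesis ends. RING1A and RING1B, encoded by Ring1 and Rnf2, are the ligase subunits of Polycomb repressive complex 1 and are known to attach ubiquitin to histone H2A itself. In bulk samples fewer cycling cells and less histone RNA per cell cannot be told apart.

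The sequence that defines this class was read from the GENCODE vM21 transcripts. A stem-loop of 16 letters (GG, 3 pyrimidines, TT, a pyrimidine, T, any base, A, 3 purines, CC) occurred in an annotated transcript of 46 of the 69 members. For the other 23 a missing match says only that these letters are not in the annotated transcript. The 3 commonest forms are shown because they are the feature the members share, written 5′ to 3′ as DNA with the 4 loop letters in capitals.
stem-loop of 26 members, Hist1h1e and Hist1h2bm among them: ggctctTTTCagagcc
stem-loop of 7 members, Hist1h4d among them: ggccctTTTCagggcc
stem-loop of 6 members, Hist1h2bb among them: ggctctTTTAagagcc
The 3 forms share the loop start and differ in the stem or in the last loop letter. Hist2h2be and Hist1h2bc, which encode H2B and are known to give polyadenylated messages as well, had no such match.

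The promoters were read from the RefSeq table (GRCm38.p6, the assembly that mm10 names), in which 59 members had exactly 1 promoter, from 250 bases before to 50 after the start. The CCAAT letters, searched on both strands like the other motifs here, occurred in all 6 of the H1 promoters, all 16 of H2A, all 15 of H2B and all 10 of H3, but in 3 of 12 for H4. Over the table's 32851 promoters of the same length the share was 37.4%. TATAAA occurred in 35 of the 59 (59.3%), against 13.6% of all promoters. TTTGCAT, part of the octamer element known from H2B promoters, occurred in 6 of 15 H2B and 7 of 16 H2A promoters (40.0% and 43.8%), in 1 of 12 H4 promoters, and in none of the H1 or H3 promoters, against 4.63% of all promoters. H2A and H2B genes often lie head to head, so some of these windows are the same stretch of DNA read from either side. The 120 bases before the start are shown for 1 member of each type that is among the 3 of its type with the most reads, with the 3 motifs in capitals on either strand (ATTGG is CCAAT read on the other strand).
Hist1h1e (chr13:23622559-23622678, minus strand): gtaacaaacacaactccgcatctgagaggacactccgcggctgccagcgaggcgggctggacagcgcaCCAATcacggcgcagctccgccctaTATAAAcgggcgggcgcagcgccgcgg
Hist1h2ak (chr13:21753913-21754032, minus strand): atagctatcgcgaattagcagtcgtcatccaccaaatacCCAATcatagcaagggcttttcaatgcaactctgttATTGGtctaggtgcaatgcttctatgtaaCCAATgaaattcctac
Hist1h2bm (chr13:21721924-21722043, plus strand): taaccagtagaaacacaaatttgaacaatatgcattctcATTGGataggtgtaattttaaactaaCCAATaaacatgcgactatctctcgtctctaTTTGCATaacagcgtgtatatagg
Hist1h3e (chr13:23562386-23562505, minus strand): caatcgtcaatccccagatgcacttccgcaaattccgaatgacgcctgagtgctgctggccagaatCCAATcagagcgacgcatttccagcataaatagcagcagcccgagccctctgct
Hist1h4d (chr13:23581448-23581567, plus strand): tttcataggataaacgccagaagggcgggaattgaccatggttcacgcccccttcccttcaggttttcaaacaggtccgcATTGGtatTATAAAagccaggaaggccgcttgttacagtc
Only the Hist1h2bm stretch among these 5 holds the TTTGCAT letters, and those of Hist1h1e and Hist1h4d hold TATAAA close to the start.

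By position, GENCODE placed 55 members on chromosome 13, 10 on chromosome 3, 3 on chromosome 11 and 1 on chromosome 6. Because many copies are nearly identical, the share of each member's 100-nt windows (the read length) that occur in no transcript of a gene at another place was computed. That share was under 50% for 24 members, from 50 to 90% for 24 and at least 90% for 21. Of the 11 members with 0 counts in all 6 libraries, 8 had a share under 50%, among them Hist2h2aa1, Hist2h2aa2 and Hist1h2bq, so 0 there does not show that the gene was silent. The other 3 were Hist2h3c1 and the testis variants of H2A and H2B, Hist1h2aa and Hist1h2ba. The sources used here do not state how reads that match several places were counted, and values of members with a low share are uncertain in that respect.

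Total counts were between 24.8 and 30.8 M per library, and the 69 members together held 1969 to 21933 counts. One count was worth between 0.0323 and 0.0392 CPM (the count per M counts of the library, scaled by edgeR's TMM method). Ring1, the gene of RING1A, had 1.84, 7.34 and 14.1 CPM in the libraries labelled 2KO, against 19.5, 22.4 and 3.37 CPM in those labelled control (log2 fold change -0.96 with SE 0.76, adjusted p = 0.537 by edgeR). Rnf2, the gene of RING1B, had 75.3, 66.4 and 89.2 CPM in the libraries labelled 2KO, against 67.7, 79.5 and 47.1 CPM in those labelled control (log2 fold change 0.25 with SE 0.23, adjusted p = 0.615 by edgeR). Neither gene separated the groups, and Ring1 was lower in the library labelled control replicate 3 than in that labelled 2KO replicate 3, against their labels. Which stretch of each gene was deleted is not stated, so whole-gene counts check the labels only in part, and every library is called by its label. Xist, transcribed from the inactive X chromosome of females, was above 1000 CPM in 2KO replicates 1 and 2 and control replicate 3 and below 11 CPM in the other libraries, so the groups were not matched for Xist, and sex is not in the labels. Krt25, a hair follicle keratin, separated the groups as labelled, listed at 0 in each library labelled 2KO, against 25.8, 10.6 and 18.7 CPM in those labelled control. Hair follicle and basal keratinocyte markers were both present: Sox9 had 211 to 510.3 CPM in 2KO and 268 to 509 CPM in control, and Krt5 11630.0 to 18716 CPM in 2KO and 7636 to 16166 CPM in control.

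Histone messages of every type were at a lower level in the 2KO libraries, but no single member passed the test. The summed level of all 69 members was 252, 262 and 77.3 CPM in the libraries labelled 2KO, against 451, 362 and 717 CPM in those labelled control, a ratio of means of 0.387. Of the 42 members with enough counts to be tested, 41 had a fitted log2 fold change below 0, where 51.4% of all 14972 tested genes did. The median over the 42 was -1.42, against -0.02 over all tested genes. In edgeR's quasi-likelihood test, adjusted over all tested genes, 0 members were higher and 0 lower at an adjusted p under 0.05, where 9.02% of all tested genes passed, 6.61% higher and 2.42% lower. The smallest adjusted p among the members was 0.0632, that of Hist1h2bj. At an unadjusted p under 0.05, 19 members were lower (45.2%, against 8.9% of all tested genes) and 0 higher. DESeq2, which tested 49 members, called 9 of them lower, where it called 4.68% of all genes it tested lower. Limma-voom called 2 of the 42 lower, where it called 2.69% of all genes lower, and neither tool called a member higher. All 3 libraries labelled 2KO lay below all 3 labelled control for 30 of the 42 members, where this held for 13.1% of all tested genes. The median standard error of the members' log2 fold change was 0.74, against 0.32 over all tested genes, so a member had to differ by more than a typical gene to pass.

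**Figure D1:**
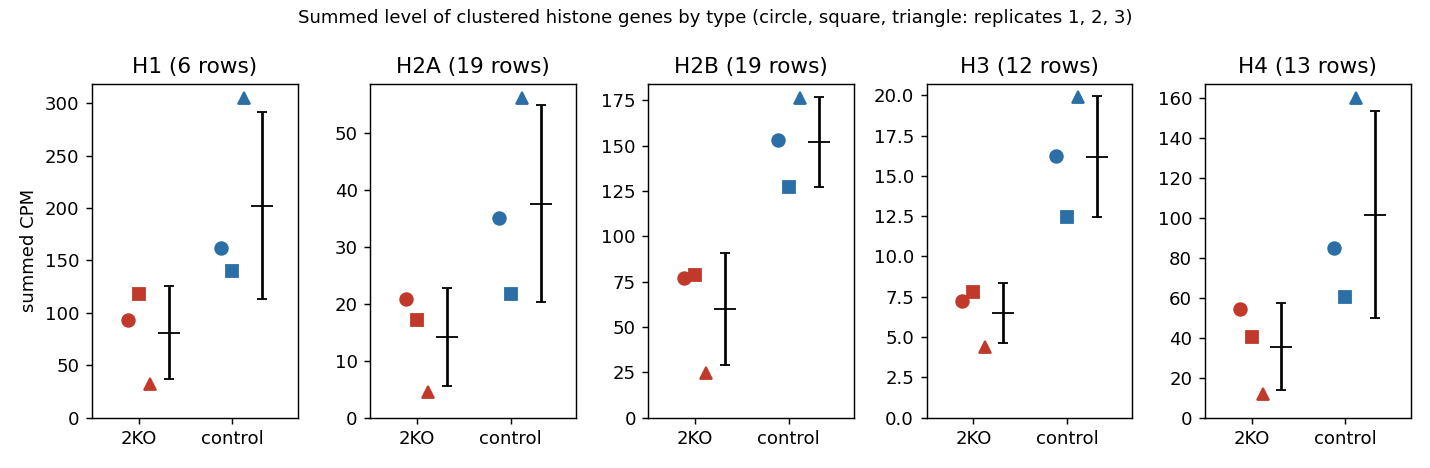
Summed CPM of the clustered histone genes of each type (vertical axis, 1 panel per type, each from 0) in the 2KO and control libraries; symbols mark replicates 1, 2 and 3, and the black bar is the mean with its SD (n = 3). In each panel the 3 libraries labelled 2KO lie below the 3 labelled control, with 2KO replicate 3 the lowest and control replicate 3 the highest.

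Both libraries numbered 3, those in which Ring1 went against the labels, lay at the ends of the range. Taken over the 42 members, the median ratio to the control mean was 0.495, 0.466 and 0.11 in 2KO replicates 1, 2 and 3, against 0.945, 0.722 and 1.3 in control replicates 1, 2 and 3. The third 2KO library was the lowest of the 6 for 34 of 42 members (81.0%, against 20.4% of all tested genes), and control replicate 3 the highest for 30 (71.4%, against 15.8%). Without 2KO replicate 3 the median log2 fold change over the tested members was -1.0, with 42 of 43 below 0 and 0 passing. With both libraries numbered 3 left out it was -0.80, with 37 of 42 below 0 and 0 passing. Within libraries of like Xist level, the summed level was 257 CPM in 2KO replicates 1 and 2 on average, against 717 CPM in control replicate 3 (high Xist). It was 77.3 CPM in 2KO replicate 3, against 406 CPM in control replicates 1 and 2 on average (low Xist). In each of these subsets 40 of the 42 members were lower in every 2KO library than in every control library, where 37.5% and 39.0% of all tested genes were. In each subset the library alone on its side was a library numbered 3, at an end of the range. These counts therefore cannot be told apart from the extreme levels of those libraries. With 1 library on a side no test is given.

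**Figure D2:**
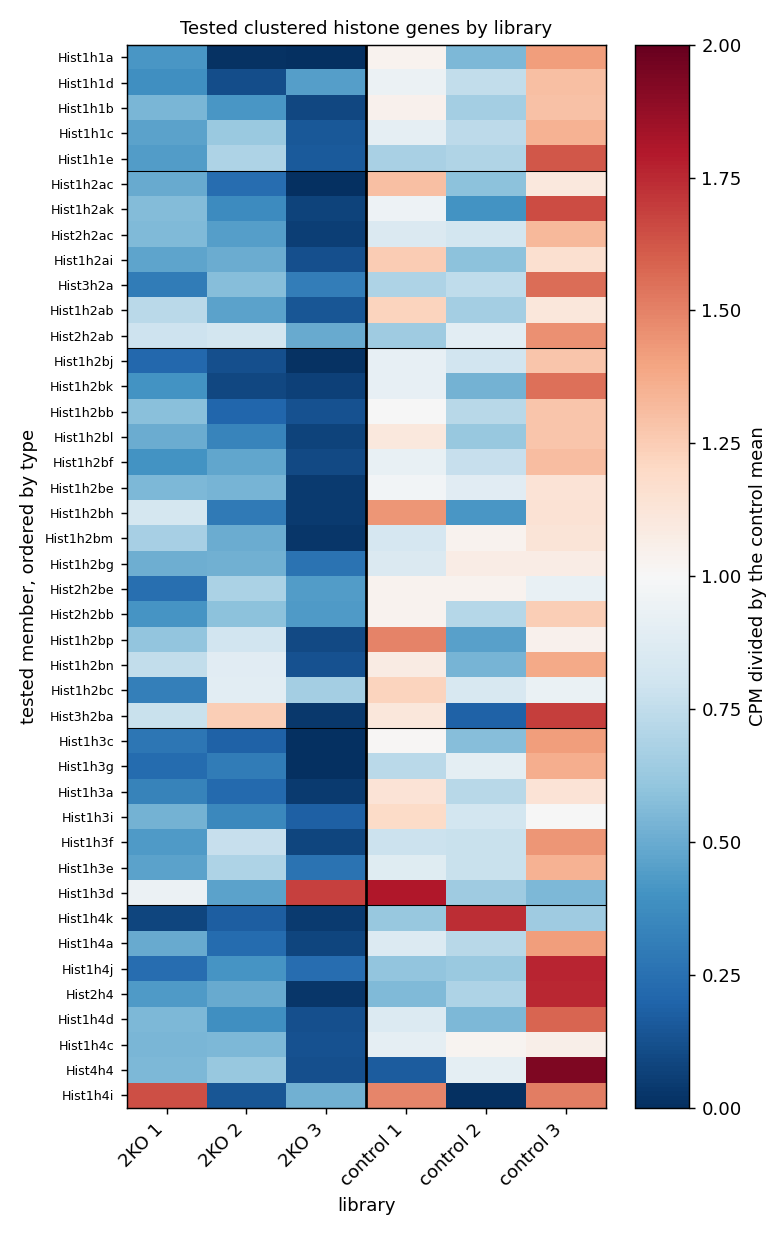
Level of each tested clustered histone gene (rows, ordered by type from H1 at the top to H4) in each library (columns, 2KO left of control), as CPM divided by the mean of the control libraries; blue is below and red above that mean. The column of 2KO replicate 3 is the darkest blue for most rows, while Hist1h3d and Hist1h4i do not follow the rest.

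The linker histone genes, whose proteins bind the DNA between nucleosomes, had summed levels of 93.1, 118 and 32.1 CPM in the libraries labelled 2KO, against 162, 140.4 and 305 CPM in those labelled control. In each library most of this sum was Hist1h1e. All 5 tested H1 members were below 0 (51.4% of all tested genes were), with log2 fold changes from -2.81 to -1.21. For 4 of them all 2KO libraries lay below all control libraries, as for 13.1% of all tested genes. Hist1h1e (chr13:23620629-23622558, minus strand), the gene of H1.4, had 55.1, 86.6 and 19.9 CPM in the libraries labelled 2KO, against 85.0, 87.2 and 203 CPM in those labelled control (log2 fold change -1.21 with SE 0.50, adjusted p = 0.194 by edgeR). Its control replicates 1 and 2 lay within 3 CPM of 2KO replicate 2, so its groups overlapped. Hist1h1b, the gene of H1.5, had 22.5, 17.4 and 3.73 CPM in the libraries labelled 2KO, against 43.5, 27.5 and 53.7 CPM in those labelled control (log2 fold change -1.51 with SE 0.54, adjusted p = 0.130 by edgeR). Hist1h1c, the gene of H1.2, had 9.37, 12.6 and 2.98 CPM in the libraries labelled 2KO, against 18.3, 14.9 and 27.1 CPM in those labelled control (log2 fold change -1.27 with SE 0.48, adjusted p = 0.154 by edgeR). The groups of both were apart. Hist1h1a, the gene of H1.1, had counts of 53, 2 and 0 in the libraries labelled 2KO, against 146, 85 and 217 in those labelled control (log2 fold change -2.81 with SE 1.27, adjusted p = 0.239 by edgeR). Without 2KO replicate 1 its fitted value was -6.96 (adjusted p = 0.00730 by edgeR), which then rests on 2 and 0 counts in 2KO, and without both libraries numbered 1 it was -6.93 (adjusted p = 0.0157 by edgeR). Hist1h1d, the gene of H1.3, had 4.0, 1.17 and 4.67 CPM in the libraries labelled 2KO, against 9.76, 7.78 and 13.5 CPM in those labelled control, and it was the only tested H1 member with 2KO replicate 3 as the highest 2KO library. Hist1h1t, the testis H1, had too few counts to be tested, with 0, 0 and 20 counts in the 2KO libraries and 4, 8 and 24 in the control libraries.

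The H2A genes encode the histone that RING1 proteins ubiquitinate. Their summed level was 20.8, 17.2 and 4.43 CPM in the libraries labelled 2KO, against 34.9, 21.7 and 56.0 CPM in those labelled control, and the highest 2KO value lay just under the lowest control value. Hist1h2ak was the largest part of this sum in each library. Of 19 rows 7 were tested, all below 0 (median -1.43), where 51.4% of all tested genes were. For 4 of the 7 all 2KO libraries lay below all control libraries, as for 13.1% of all tested genes. Hist1h2ak (chr13:21753435-21753827, minus strand) had 10.8, 7.04 and 1.37 CPM in the libraries labelled 2KO, against 18.1, 7.65 and 31.7 CPM in those labelled control (log2 fold change -1.58 with SE 0.69, adjusted p = 0.220 by edgeR). Its values overlapped through 2KO replicate 1. Hist2h2ac (chr3:96220361-96220880, minus strand) had 4.78, 3.80 and 0.510 CPM in the libraries labelled 2KO, against 7.31, 6.97 and 11.3 CPM in those labelled control (log2 fold change -1.49 with SE 0.67, adjusted p = 0.234 by edgeR). Hist3h2a, of the cluster on chromosome 11, had 0.980, 1.87 and 1.02 CPM in the libraries labelled 2KO, against 2.27, 2.45 and 5.10 CPM in those labelled control (log2 fold change -1.34 with SE 0.60, adjusted p = 0.237 by edgeR). For these 2 genes the groups were apart, although 2KO replicates 1 and 3 of Hist3h2a were alike. Hist1h2ac, a member with known polyadenylated messages, had counts of 9, 5 and 0 in the libraries labelled 2KO, against 26, 13 and 24 in those labelled control (log2 fold change -2.01 with SE 1.15, adjusted p = 0.365 by edgeR). Hist1h2al ran the other way, with 2, 37 and 7 counts in the 2KO libraries, against 0, 0 and 1 in the control libraries. It was not tested, GENCODE annotates it as a processed pseudogene, and it is named here because its values were seen to be higher. Hist1h2ah had 0 counts in all 2KO libraries and 14 over the control libraries, with only 12.1% of its windows its own. Its level over the control libraries together was 4.21 times a floor of 3 counts over the 2KO group.

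H2B, the partner of H2A in the nucleosome, had summed levels of 76.8, 78.5 and 24.6 CPM in the libraries labelled 2KO, against 153, 127 and 176 CPM in those labelled control. All 15 tested members were below 0, and for 10 all 2KO libraries lay below all control libraries (51.4% and 13.1% of all tested genes). Hist1h2bm (chr13:21722044-21722567, plus strand) had 22.1, 16.7 and 0.785 CPM in the libraries labelled 2KO, against 27.5, 34.2 and 37.3 CPM in those labelled control (log2 fold change -1.32 with SE 0.79, adjusted p = 0.386 by edgeR). In 2KO replicate 3 it was at 0.0405 of the mean of the other 2KO libraries. Hist1h2bl had 15.6, 10.5 and 2.28 CPM in the libraries labelled 2KO, against 33.9, 19.1 and 39.1 CPM in those labelled control (log2 fold change -1.70 with SE 0.57, adjusted p = 0.109 by edgeR), with 37.9% of its windows its own. Hist1h2bj, named after its values were seen because its p was the smallest, had 0.588, 0.334 and 0.0392 CPM in the libraries labelled 2KO, against 2.48, 2.2 and 3.47 CPM in those labelled control (log2 fold change -3.06 with SE 0.88, adjusted p = 0.0632 by edgeR). It was called lower by DESeq2 (adjusted p = 0.00237), with no low-count filter (edgeR adjusted p = 0.0459) and with the CPM filter (edgeR adjusted p = 0.0482).

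The 2 H2B members with known polyadenylated messages and no stem-loop match were among the 8 tested members in which 2KO replicate 3 was not the lowest library. As classes neither kind did so throughout: 2KO replicate 3 was the lowest for 9 of 12 tested members with no stem-loop match, 25 of 30 with one, and 4 of the 8 tested members with known polyadenylated or replication-uncoupled messages. Hist2h2be (chr3:96221119-96223738, plus strand) had 6.08, 16.8 and 10.9 CPM in the libraries labelled 2KO, against 25.6, 25.6 and 23.0 CPM in those labelled control (log2 fold change -1.13 with SE 0.35, adjusted p = 0.0836 by edgeR). Its lowest library was 2KO replicate 1, and its control values were alike. Hist1h2bc had 2.43, 6.94 and 5.14 CPM in the libraries labelled 2KO, against 9.47, 6.52 and 7.26 CPM in those labelled control (log2 fold change -0.68 with SE 0.44, adjusted p = 0.432 by edgeR), again with 2KO replicate 1 the lowest, and its groups overlapped through 2KO replicate 2. The ratio of 2KO replicate 3 to the mean of the other 2KO libraries was 0.956 for Hist2h2be and 1.10 for Hist1h2bc. Hist1h2be, which has both a stem-loop and a long annotated transcript overlapping Hist1h1e, had 10.2, 9.88 and 0.824 CPM in the libraries labelled 2KO, against 17.9, 16.4 and 21.0 CPM in those labelled control (log2 fold change -1.40 with SE 0.68, adjusted p = 0.274 by edgeR), with 2KO replicate 3 the lowest. Hist3h2ba had 2.35, 3.77 and 0.118 CPM in the libraries labelled 2KO, against 3.37, 0.581 and 5.10 CPM in those labelled control (log2 fold change -0.53 with SE 1.03, adjusted p = 0.834 by edgeR), the groups overlapping widely. Hist3h2bb-ps, a pseudogene, had counts of 0, 0 and 0 in the libraries labelled 2KO, against 1, 5 and 18 in those labelled control. Its level over the control libraries together was 7.22 times the same floor, and most of these counts were in control replicate 3.

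The H3 genes had summed levels of 7.25, 7.81 and 4.35 CPM in the libraries labelled 2KO, against 16.2, 12.4 and 19.9 CPM in those labelled control. Of 7 tested members 6 were below 0, with all 2KO below all control libraries in each of the 6 (51.4% and 13.1% of all tested genes). Hist1h3e (chr13:23561534-23562369, minus strand) had 2.90, 4.31 and 1.65 CPM in the libraries labelled 2KO, against 5.50, 4.84 and 8.44 CPM in those labelled control (log2 fold change -1.08 with SE 0.48, adjusted p = 0.231 by edgeR). Hist1h3i had 1.14, 0.768 and 0.392 CPM in the libraries labelled 2KO, against 2.55, 1.74 and 2.13 CPM in those labelled control (log2 fold change -1.48 with SE 0.68, adjusted p = 0.249 by edgeR). Hist1h3g had counts of 11, 17 and 0 in the libraries labelled 2KO, against 39, 53 and 79 in those labelled control (log2 fold change -2.48 with SE 1.08, adjusted p = 0.220 by edgeR). The exception was Hist1h3d, with 0.941, 0.467 and 1.69 CPM in the libraries labelled 2KO, against 1.81, 0.646 and 0.556 CPM in those labelled control (log2 fold change 0.04 with SE 0.83, adjusted p = 0.989 by edgeR), whose highest libraries were 2KO replicate 3 and control replicate 1. It is named here because it was the 1 tested member above 0. Its value was -0.49 without 2KO replicate 3, -0.25 without control replicate 3, -0.20 without control replicate 2 and -0.80 without both libraries numbered 3. Hist2h3c1 and Hist2h3c2 were at 0 in all libraries, and for Hist2h3c2 38.4% of its windows were its own.

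The H4 genes had summed levels of 54.3, 40.6 and 11.8 CPM in the libraries labelled 2KO, against 85.0, 60.4 and 160.0 CPM in those labelled control. In each library most of this sum was Hist1h4d. All 8 tested members were below 0, from -3.27 to -0.38, where 51.4% of all tested genes were. For 6 of the 8 all 2KO libraries lay below all control libraries, as for 13.1% of all tested genes. Hist1h4d (chr13:23581598-23582735, plus strand) had 45.9, 32.2 and 10.3 CPM in the libraries labelled 2KO, against 72.4, 46.3 and 132 CPM in those labelled control (log2 fold change -1.50 with SE 0.52, adjusted p = 0.117 by edgeR). All of its 100-nt windows were its own, and its 2KO replicate 1 and control replicate 2 were alike. Hist2h4 (chr3:96261682-96263311, minus strand) had 4.04, 4.67 and 0.235 CPM in the libraries labelled 2KO, against 5.25, 6.46 and 16.4 CPM in those labelled control (log2 fold change -1.65 with SE 0.84, adjusted p = 0.299 by edgeR). Hist1h4c had 1.53, 1.54 and 0.353 CPM in the libraries labelled 2KO, against 2.55, 2.87 and 2.98 CPM in those labelled control (log2 fold change -1.29 with SE 0.67, adjusted p = 0.312 by edgeR). In both, 2KO replicates 1 and 2 were alike and replicate 3 was far below them. Hist1h4i had counts of 19, 2 and 6 in the libraries labelled 2KO, against 19, 0 and 21 in those labelled control, with the order of libraries unlike that of the other H4 members (log2 fold change -0.38 with SE 1.35, adjusted p = 0.919 by edgeR). Hist4h4, the lone member on chromosome 6, had counts of 9, 12 and 2 in the libraries labelled 2KO, against 3, 18 and 38 in those labelled control (log2 fold change -1.20 with SE 1.09, adjusted p = 0.606 by edgeR).

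**Figure D3:**
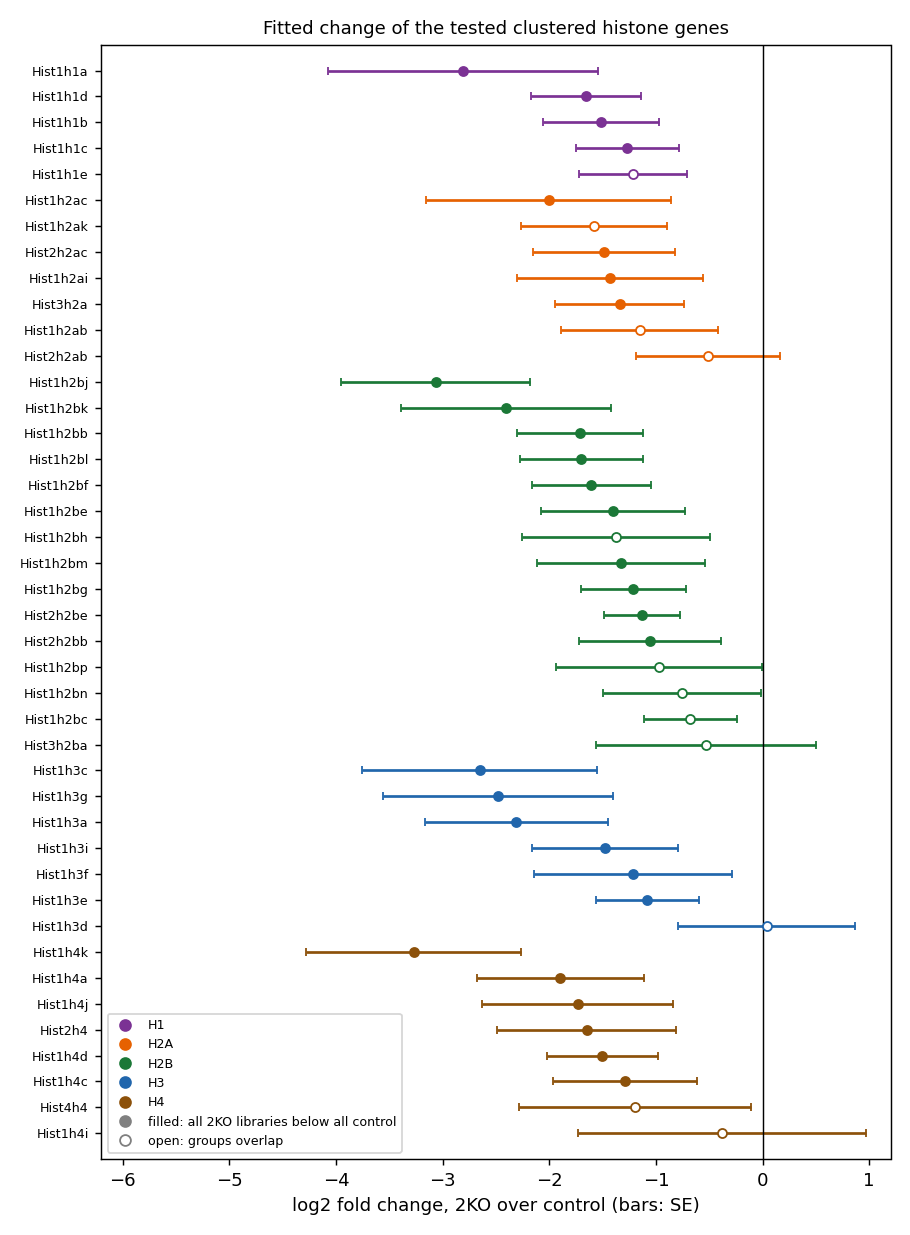
Fitted log2 fold change (horizontal axis, 2KO over control, with SE) of the 42 tested clustered histone genes (vertical axis), coloured by type; filled points mark the 30 members for which all 2KO libraries lay below all control libraries. All points but that of Hist1h3d lie left of 0, and 0 passed the adjusted threshold.

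The members' median was below 0 in each block of the cluster, each sequence class and each range of own windows, and differences between these classes were not tested. On chromosome 13 the block from 21715763 to 22043676 had a median log2 fold change of -1.51 (13 tested members) and that from 23531050 to 23934851 one of -1.40 (21 tested members), while Hist1h2al lies alone at 51202727. The median was -1.13 over the 5 tested members of the cluster on chromosome 3. It was -1.39 over 30 tested members with a stem-loop match and -1.45 over 12 without. Over 18 tested members with at least 90% own windows it was -1.36, and over 7 tested members with under 50% it was -1.48. All of the 18 were below 0, and for 13 all 2KO libraries lay below all control libraries (51.4% and 13.1% of all tested genes).

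Of 11 tested replacement variants, histones made outside S phase as well, 2 fell and 0 rose, where 2.42% of all tested genes fell. Of the 11, 8 were below 0, where 51.4% of all tested genes were. H2afz, the gene of H2A.Z, had 28.0, 23.5 and 19.0 CPM in the libraries labelled 2KO, against 59.8, 36.2 and 47.5 CPM in those labelled control (log2 fold change -1.02 with SE 0.26, adjusted p = 0.0363 by edgeR). H3f3b, a gene of H3.3, had 241, 198 and 249.6 CPM in the libraries labelled 2KO, against 465, 563 and 345 CPM in those labelled control (log2 fold change -1.0 with SE 0.21, adjusted p = 0.0162 by edgeR). H1f0, the linker histone of differentiated cells, had 205 ± 44.3 CPM in 2KO and 332 ± 85.4 CPM in control (SD, n = 3 each), short of the threshold (edgeR adjusted p = 0.0981). The call of H2afz was lost without 2KO replicate 2 (adjusted p = 0.105), without 2KO replicate 3 (adjusted p = 0.113), without control replicate 1 (adjusted p = 0.134), without control replicate 3 (adjusted p = 0.0963), without both libraries numbered 3 (adjusted p = 0.227), without both libraries numbered 1 (adjusted p = 0.0752) and in the fit with the Xist covariate (adjusted p = 0.0693). That of H3f3b was lost without 2KO replicate 2 (adjusted p = 0.0702), without control replicate 2 (adjusted p = 0.0601) and without both libraries numbered 1 (adjusted p = 0.0618).

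Of 24 tested genes for the transcription and processing of histone messages 0 passed by edgeR in either direction, where 9.02% of all tested genes did. Their median log2 fold change was -0.09. DESeq2 and limma-voom called 1 of them lower, where they called 4.68% and 2.69% of all genes lower. That 1 was Slbp, the gene of the stem-loop binding protein, which had 29.2, 17.9 and 11.8 CPM in the libraries labelled 2KO, against 50.9, 39.9 and 33.1 CPM in those labelled control (log2 fold change -1.07 with SE 0.34, adjusted p = 0.0843 by edgeR; DESeq2 adjusted p = 0.0204). Its groups were apart. Npat, a coactivator of histone gene transcription, had 86.8, 77.6 and 115 CPM in the libraries labelled 2KO, against 104, 97.7 and 95.4 CPM in those labelled control (log2 fold change -0.09 with SE 0.19, adjusted p = 0.848 by edgeR). Among 25 tested histone chaperones 2 fell and 0 rose, where 2.42% of all tested genes fell. The 2 were Chaf1a and Chaf1b, subunits of the assembly factor CAF-1 that deposits H3 and H4 at replication forks. Chaf1a averaged 26.4 ± 6.24 CPM in 2KO and 50.1 ± 8.86 CPM in control (SD, n = 3 each), and Chaf1b averaged 17.3 ± 3.38 CPM in 2KO and 39.1 ± 7.22 CPM in control (SD, n = 3 each), with edgeR adjusted p of 0.0495 and 0.0180. The number of chaperones that fell is given with the share of all genes lower in that setting. It was 0 without 2KO replicate 3 (1.44%), control replicate 1 (1.28%) or control replicate 3 (1.23%). It was 4 without 2KO replicate 1 (2.25%) and 0 without both libraries numbered 3 (0.48%). DESeq2 gave 5 (4.68%), and the replicate number as a block gave 5 (3.61%). Limma-voom gave 4 (2.69%), and no low-count filter gave 4 (2.38%). It was 1 without control replicate 2 (1.53%), without both libraries numbered 1 (1.73%) or with Xist as a covariate (1.54%).

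Genes of DNA replication are known to be expressed alongside the clustered histones in S phase. Of 51 tested S phase genes, Slbp among them, 25 fell and 0 rose, where 2.42% of all tested genes fell, and all 51 were below 0, with a median of -1.07. Their summed level was 1281, 1328 and 917 CPM in the libraries labelled 2KO, against 2836, 2055 and 2428 CPM in those labelled control. Prim1, a primase subunit, had 19.3, 17.0 and 13.9 CPM in the libraries labelled 2KO, against 70.4, 50.7 and 55.4 CPM in those labelled control (log2 fold change -1.81 with SE 0.23, adjusted p = 0.00197 by edgeR). Mcm6, a subunit of the replicative helicase, had 34.8, 41.5 and 46.7 CPM in the libraries labelled 2KO, against 172, 96.7 and 138 CPM in those labelled control (log2 fold change -1.73 with SE 0.24, adjusted p = 0.00270 by edgeR). Pcna, the sliding clamp, had 35.3, 27.9 and 17.7 CPM in the libraries labelled 2KO, against 64.7, 50.2 and 53.1 CPM in those labelled control (log2 fold change -1.05 with SE 0.27, adjusted p = 0.0411 by edgeR). The groups were apart in all 3, and in Prim1 and Pcna 2KO replicate 3 was the lowest library. The call of Pcna was lost without 2KO replicate 2 (adjusted p = 0.106), without 2KO replicate 3 (adjusted p = 0.0853), without control replicate 1 (adjusted p = 0.133), without control replicate 2 (adjusted p = 0.0724), without control replicate 3 (adjusted p = 0.0930), without both libraries numbered 3 (adjusted p = 0.169), without both libraries numbered 1 (adjusted p = 0.0522) and in the fit with the Xist covariate (adjusted p = 0.0592). The number of S phase genes that fell ranged from 4 to 37 over 16 alternatives, where 0.48% to 4.68% of all genes fell. It ranged from 8 to 19 when 1 library was left out, where 1.19% to 2.25% of all genes fell. It was 10 without 2KO replicate 3 (1.44% of all genes) and 15 without 2KO replicate 2 (1.19%). It was 8 without control replicate 1 (1.28%) and 11 without control replicate 3 (1.23%). It was 15 without both libraries numbered 1 (1.73%), and 4 without both libraries numbered 3 (0.48%).

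Of 25 G2 and mitosis genes 1 fell (Ccna2, the gene of cyclin A2, edgeR adjusted p = 0.0379) and 0 rose, where 2.42% of all tested genes fell. All 25 were below 0. The call of Ccna2 was lost without 2KO replicate 2 (adjusted p = 0.113), without 2KO replicate 3 (adjusted p = 0.120), without control replicate 1 (adjusted p = 0.129), without control replicate 3 (adjusted p = 0.0816), without both libraries numbered 3 (adjusted p = 0.215), without both libraries numbered 1 (adjusted p = 0.0548) and in the fit with the Xist covariate (adjusted p = 0.0880). The number of G2 and mitosis genes that fell was 7 with the replicate number as a block (3.61% of all genes). DESeq2 gave 3 (4.68%), and leaving out control replicate 2 gave 3 (1.53%). It was 2 with no low-count filter (2.38%) and 2 without both libraries numbered 1 (1.73%). It was 0 without 2KO replicate 2 (1.19%), 2KO replicate 3 (1.44%), control replicate 1 (1.28%) or control replicate 3 (1.23%). It was also 0 without both libraries numbered 3 (0.48%) and 0 with Xist as a covariate (1.54%). Their summed level was 2249.8, 1446 and 1416 CPM in the libraries labelled 2KO, against 4977, 1891 and 2587 CPM in those labelled control, so that control replicate 1 was far above the others and the groups overlapped. Mki67, a marker of cycling cells, had 764, 489 and 490.4 CPM in the libraries labelled 2KO, against 2006, 714 and 931 CPM in those labelled control (log2 fold change -1.07 with SE 0.36, adjusted p = 0.113 by edgeR).

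**Figure D4:**
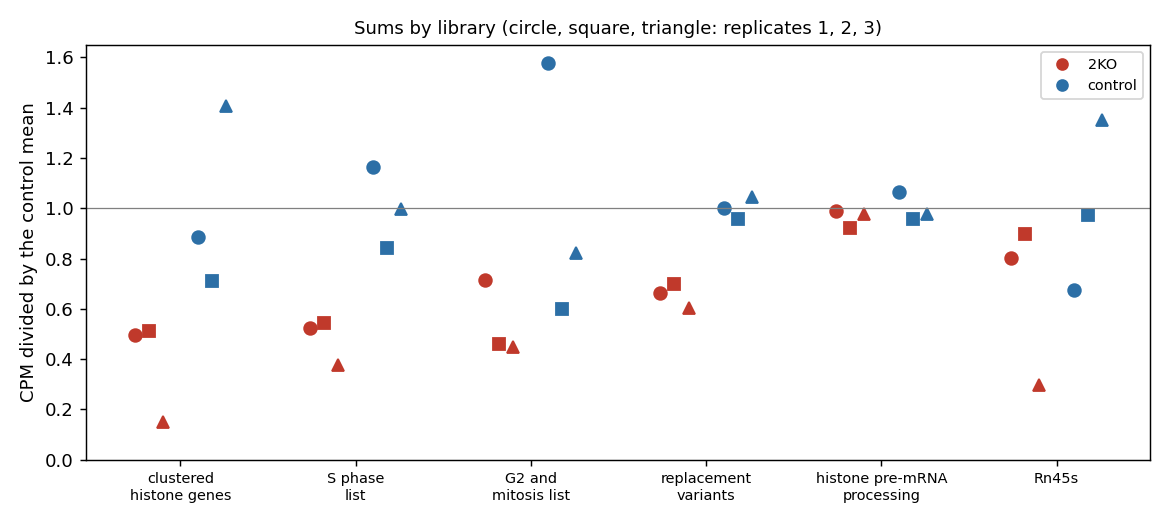
Level in each library divided by the control mean (vertical axis, from 0) for the sum of the clustered histone genes, the sums of 4 other gene lists and the ribosomal RNA row Rn45s; red 2KO symbols stand left of blue control symbols, and symbol shapes mark replicates 1, 2 and 3. The histone sum and Rn45s share their lowest library (2KO replicate 3) and their highest (control replicate 3), the S phase sum has its highest in control replicate 1, and the sum of the processing genes lies near 1 throughout.

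Other RNAs without a poly(A) tail were looked at after their values were seen. Rn45s, the ribosomal RNA row, took 5.88, 6.93 and 2.35% of the counts in the 2KO libraries, against 5.18, 7.62 and 10.3% in the control libraries. Rmrp, a noncoding RNA of ribosomal RNA processing, had 4.67, 10.1 and 0.432 CPM in the libraries labelled 2KO, against 3.97, 4.94 and 12.2 CPM in those labelled control. Rpph1, the RNA of ribonuclease P, had 2.04, 9.35 and 0 CPM in the libraries labelled 2KO, against 1.10, 0.839 and 8.34 CPM in those labelled control. In each of the 3 the lowest library was 2KO replicate 3, as for most histone members. Rn45s and Rmrp were highest in control replicate 3, and Rpph1 was highest in 2KO replicate 2. Snord118, a small nucleolar RNA, had 4.59, 2.97 and 0.432 CPM in the libraries labelled 2KO, against 5.75, 6.17 and 4.02 CPM in those labelled control, again with 2KO replicate 3 the lowest but with control replicate 3 the lowest control library. None of the 4 passed the test between the groups (edgeR adjusted p = 0.477 for Rn45s, 0.819 for Rmrp, 0.971 for Rpph1 and 0.478 for Snord118). Whether the capture of such RNAs differed between libraries was not tested.

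Markers of other cells moved in part with the groups. Of 10 hair follicle markers 5 fell in 2KO (Krt25, Krt71, Krt35, Shh and Lgr5), where 2.42% of all tested genes fell. The sum over all 10 was 1302 to 1915 CPM in 2KO and 1395 to 2101 CPM in control. Krt17, the 1 marker of the 10 above 0, had 546 to 963 CPM in 2KO and 344 to 516 CPM in control (log2 fold change 0.89, edgeR adjusted p = 0.0514). Suprabasal keratinocyte markers, of cells that have left the cycle, summed to 809.7 to 2997 CPM in 2KO and 2861 to 10776 CPM in control, with 0 of 4 passing. Nearly all of this sum was Krt1 and Krt10 (control means of 4666 and 2752 CPM, against 16.5 for Lor and 2.72 for Ivl). Of the 4, 3 were below 0 and Lor was above 0 (log2 fold change 0.75, edgeR adjusted p = 0.660). Basal keratinocyte markers summed to 21392 to 28977 CPM in 2KO and 15558 to 28480.1 CPM in control, with 0 of 7 passing. Of 10 dermal fibroblast markers 9 were tested and 1 rose (Pdgfra), where 6.61% of all tested genes rose. Of the 9, 5 were below 0 (51.4% of all tested genes), with a median log2 fold change of -0.13. The sum over the fibroblast markers was 1126 to 1406 CPM in 2KO and 1327 to 1553 CPM in control. Melanocyte markers summed to 18.6 to 66.7 CPM in 2KO and 25.7 to 35.3 CPM in control, and Schwann markers to 41.6 to 53.8 CPM in 2KO and 25 to 43.2 CPM in control. Endothelial, immune, skeletal muscle and red blood cell markers summed to at most 15.3 CPM in any 2KO library and 11.1 CPM in any control library, with Cd207 and all 4 globin rows at 0 throughout. None of the melanocyte, Schwann, endothelial, immune, skeletal muscle or red blood cell markers tested passed. The part of these cells in the lower histone levels was not tested.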

How the data were processed

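RNA from sorted newborn mouse skin cells (10 ng per library) was amplified with a kit (Ovation RNA-seq System V2) and read as 100-nucleotide single reads, per the labels' protocols. The authors deposited raw counts per gene symbol, 1 table per library, for 3 libraries labelled 2KO and 3 labelled control. The submitters' processing notes name TopHat2 2.0.13, Cufflinks 2.2.1, HTSeq 0.6.1 and DESeq2 1.6.3 and the build mm10, with no roles. The sources used here do not state the annotation, the strand setting or the treatment of reads that match several places. Without a known strand setting, reads from overlapping genes cannot be told apart, and 25 members overlap another GENCODE gene (10 of those tested).

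The members and gene lists were chosen with earlier results of these data known. Counts were tested with edgeR 4.0.16 (R 4.3.3): filterByExpr kept 14972 of 24453 rows, TMM factors scaled the libraries, and the quasi-likelihood test compared 2KO with control, with Benjamini-Hochberg adjustment over all 14972 and a threshold of 0.05. Negative log2 fold changes mean lower in 2KO. The steps were tested on data simulated with the same dispersion for every gene. This did not test how often members with a large standard error would pass. Alternatives used DESeq2 1.42.0, limma 3.58.1 (voom), other filters and normalization, left-out libraries, a replicate block and Xist as a covariate. Members named are the 3 with most CPM per type, those with known polyadenylated or testis messages, and the Hist3h and Hist4h rows; any other is named where its values made it stand out. Sums per type are descriptions with no test. A fold against a group at 0 used a floor of 3 counts over that group. It allows for counting error in that group only, as the control counts were taken as they stood. Stem-loops and 100-nt windows were read from GENCODE vM21 transcripts (GRCm38), and promoters from the RefSeq table (GRCm38.p6), where 67 of 69 members matched 1 gene. Protein sequences were not used here.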

Additional observations from a re-analysis of the deposited data

How the results depend on the processing

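No clustered histone gene was called higher under any alternative. The number called lower, 0 in the reported fit, is given with the share of all genes that the same setting called lower. It was 4 of 58 with no low-count filter (2.38%) and 1 of 31 with at least 1 CPM in 3 libraries (2.70%). DESeq2 called 9 of 49 lower (4.68%) and limma-voom 2 of 42 (2.69%). It was 2 of 43 with both first libraries left out (1.73%) and 7 of 42 with the Xist covariate (1.54%). The count was 0 to 2 when 1 library was left out. It was 2 of 45 without 2KO replicate 1 (2.25% of all genes) and 1 of 45 without 2KO replicate 2 (1.19%). It was 0 with both libraries numbered 3 left out. The 18 tested members with at least 90% own windows, a subset chosen after seeing the data, were read from the reported fit. As no member passed in that fit, their count of 0 was fixed and adds no check. The median log2 fold change over the members lay between -2.06 (Xist as a covariate) and -0.80 (both libraries numbered 3 left out). Over all tested genes, 989 higher and 362 lower became 1497 and 771 with DESeq2 and 309 and 72 with both libraries numbered 3 left out, and 231 were lower with Xist as a covariate. Leaving out 1 library gave 615 to 854 higher and 184 to 347 lower. The cause of these differences was not tested.

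With the replicate number as a block, 2 of 42 members were lower (Hist1h1d and Hist2h2be), where 3.61% of all genes were. Deviations of same-numbered libraries from their group means correlated at 0.32, 0.10 and -0.13 over 14972 genes, and not every library correlated best with its own number. Such deviations sum to 0 within each group, so these values cannot decide whether same-numbered libraries were paired. The labels give only the number. Of 395 alternative values for the 25 tested members whose values the report gives, 358 kept direction and side of the threshold, 24 passed it and 13 turned sign. The last were Hist1h3d (-0.80 with both libraries numbered 3 left out, -0.49 to 0.79 with 1 library left out, where -0.20 and -0.25 also occurred), Hist1h4i (0.33 with limma-voom, 0.26 with both libraries numbered 3 left out, -1.56 to 0.12 with 1 library left out, where 0.02 and 0.05 also occurred), Hist3h2ba (0.64 with both libraries numbered 3 left out, -1.28 to 0.0794 with 1 library left out, where 0.05 also occurred) and Hist4h4 (0.12 with both libraries numbered 3 left out). Npat ranged from -0.25 to 0.0372 with 1 library left out (positive without 2KO replicate 2) and turned to 0.00914 with both first libraries left out and to 0.00028 with Xist as a covariate. Ring1 turned to 0.0386 with Xist as a covariate, and Rnf2 to -0.0544 with both libraries numbered 3 left out. Low counts limit most members: 27 of 69 were not tested.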
